A study of Mus musculus with 11 samples.

Results

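Solute carriers are membrane proteins that move nutrients, metals, ions and metabolites across the plasma membrane and the membranes of organelles. Of 338 protein-coding genes whose symbol has the form of a solute carrier family member, 171 had a log2 CPM (CPM, reads scaled to the library total) of at least 0 in at least 5 of the 11 libraries and are described here, out of 31936 genes in the table. The members were thus chosen on their measured level, which is given below as a description and is not tested. The rule takes in 4 genes that are named after a carrier and are no carrier (Slc9a3r1, Slc9a3r2, Slc4a1ap and Slc7a6os), and it leaves out 43 genes with other Slc symbols. At the edge of the rule, the log2 CPM that decided (number 5 from the top) was 0.02 for Slc6a20b and 0.08 for Slc16a9, just inside, and -0.02 for Slc29a2 and -0.04 for Slc39a12, just outside.

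The cells were peritoneal macrophages elicited with thioglycollate in female mice. One group of 5 libraries (replicates 1, 2, 3, 4 and 6) had received a negative control, and a group of 6 (replicates 1 to 6) had received a mimic of microRNA-150 (miR-150), a synthetic RNA that supplies the microRNA. The submitters prepared 12 samples and dropped 1 for improper fragmentation, and no control replicate 5 was analysed here. Strain, age, dose, timing and delivery are not stated in the labels. Nothing in the labels ties replicates to separate mice or dishes, and each p-value therefore reflects the scatter of these libraries, which may be technical. The comparison addresses which transcripts differ in macrophages given the mimic, in a series on macrophage miR-150 and the abnormal vessel growth of macular degeneration.

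The families differ in how they work. Exchangers such as the SLC7 proteins bring one amino acid in as another leaves, and several of them need the heavy chain encoded by Slc3a2 to reach the surface. Facilitators such as the glucose and equilibrative nucleoside carriers let a substrate run down its gradient, whereas concentrative carriers couple uptake to sodium. In macrophages, carriers of the phagosome and lysosome withhold metals from microbes and recover heme and iron from engulfed red cells, and carriers of arginine, cystine and glucose feed nitric oxide synthesis, glutathione synthesis and glycolysis.

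Libraries held 18538509 to 22668862 assigned reads in the control group and 20313901 to 25473814 in the mimic group. The defining markers of macrophages were all detected, with summed levels of 18100 to 20400 CPM in control libraries and 16300 to 19700 in mimic libraries, and 2 of the 8 markers were called higher and 2 lower. Marker lists of B, T, NK, mast and erythroid cells summed to 2.15 CPM or less in every library, and that of dendritic cells to 3.70 or less. Fibroblast markers summed to 37.3 to 54.2 CPM in control and 27.2 to 54.3 in mimic libraries, neutrophil markers to 14.4 to 17.8 and 9.70 to 15.7, and mesothelial markers to 5.00 to 6.63 and 3.39 to 6.12. The part of these cells in the member values was not tested. Siglecf, a marker of eosinophils that some macrophages also carry, was the tested gene of its list and was called lower, and that list summed to 33.4 to 36.4 CPM in control and 27.4 to 28.9 in mimic libraries. Mimic replicates 3, 4 and 6 stood apart. Their expression rose with transcript length relative to the other libraries (Spearman's rho of 0.29 to 0.35 across genes, against -0.36 to 0.05 in the other 8), and the member and class counts are also given without them. Mimic replicate 1 lay at the other end, with the lowest rho of all libraries (-0.36). In bulk RNA, fewer cells of a type and less RNA per cell cannot be told apart.

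With the mimic, 16 members rose, 23 fell and 132 did not pass the test (limma, Benjamini-Hochberg adjusted p below 0.05 over 12969 genes). Called members thus made up 22.8% of the 171, with 9.36% higher and 13.5% lower. Over all genes tested, 30.0% were called, 15.4% higher and 14.6% lower. Among protein-coding genes that pass the same level rule, 17.2% were called higher and 16.0% lower. No member moved by a full log2 unit. The median log2 fold change was -0.029 over the members and 0.001 over all genes tested, and the median size of the called changes was 0.241 in members and 0.263 in all genes. Every mimic library lay above every control library in 8 of the 171 members, and below every control library in 11 of the 171. Of the 12969 genes tested, 1153 (8.89%) and 783 (6.04%) were separated in those ways, all 11 libraries counted.

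**Figure D1:**
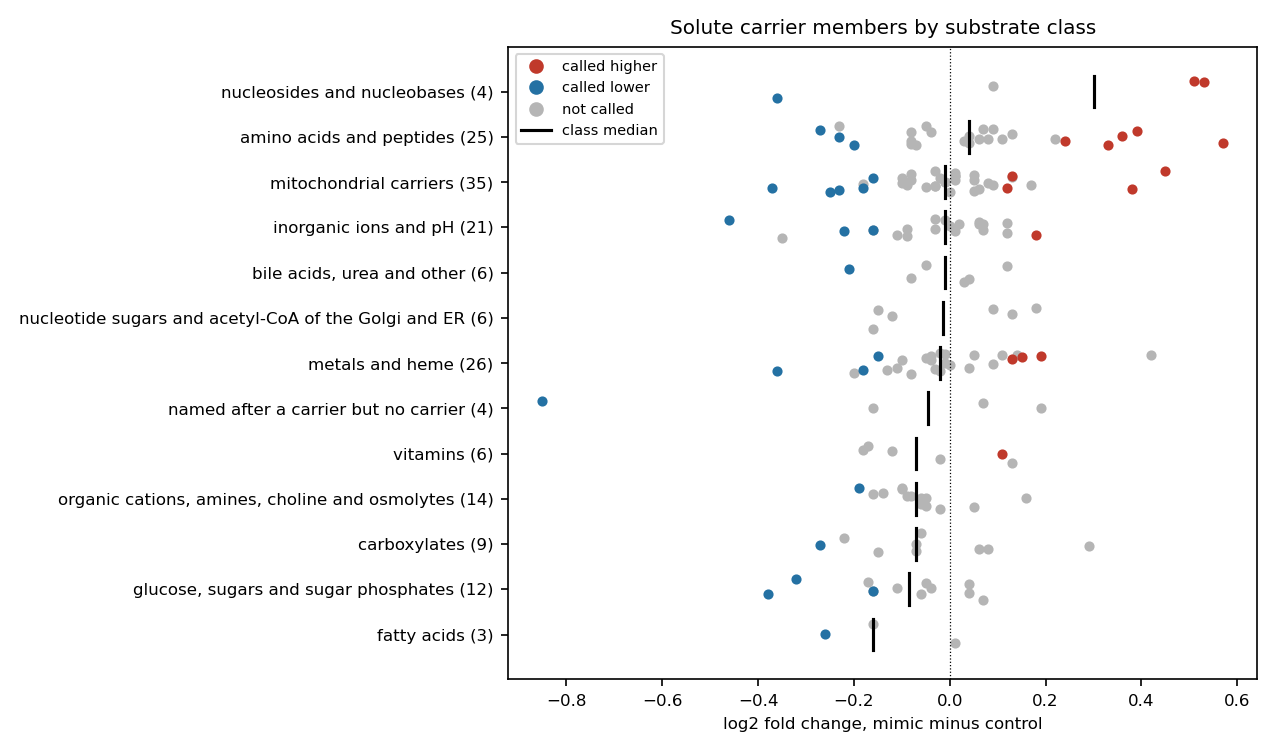
Solute carrier members by substrate class, with each member's log2 fold change (mimic minus control) as a point, coloured by its call, and the class median as a bar. The points lie on both sides of 0 in every class, and the lowest one is Slc9a3r2 at -0.85.

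Without mimic replicates 3, 4 and 6, 12 members were called higher and 20 lower, where 9.36% and 6.83% of all genes were. Of the calls made on all libraries, 10 rises and 13 falls were made again, no call changed direction, and 9 members were called in the smaller set alone. Without mimic replicate 1 alone, 24 members were called higher and 28 lower, and the shares over all genes in that setting are not given here. Among the 23 members that fell, mimic replicates 3, 4 and 6 were the 3 lowest mimic libraries in 15, or 65.2%, and for all genes that fell the share was 51.4%. Among the 16 that rose, the same libraries were the 3 highest in 4, against 53.8% for all genes that rose. With each library corrected for transcript length, 18 members were higher and 29 lower, of which 14 and 21 were shared with the uncorrected calls. These were 10.5% and 17.0% of the members, against 16.4% and 14.9% of all genes after the same correction. The part these libraries and transcript length play in the member values was not tested.

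**Figure D2:**
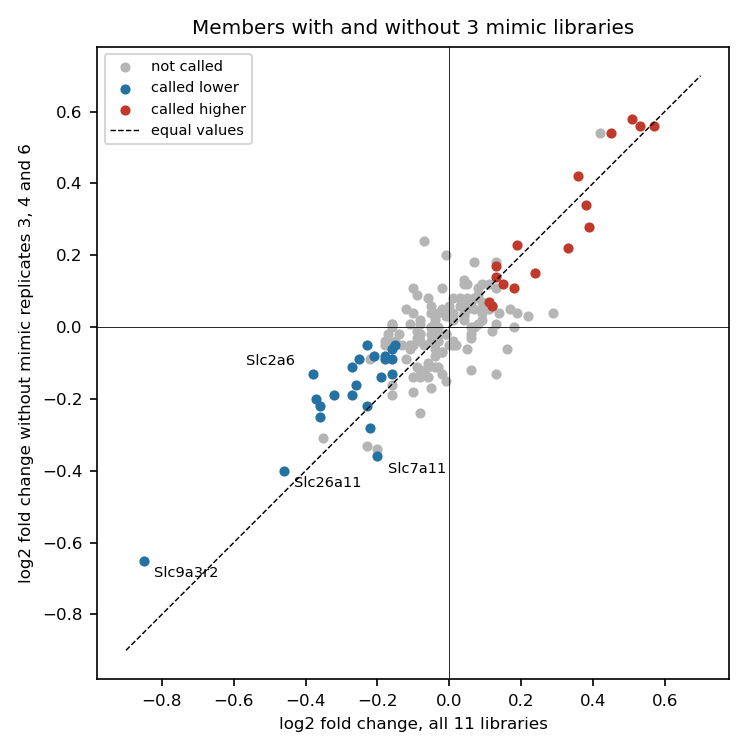
Each member's log2 fold change on all 11 libraries (x axis) against that without mimic replicates 3, 4 and 6 (y axis), coloured by the call on all libraries, with a dashed line for equal values. Slc2a6 moved from -0.38 to -0.13 and Slc7a11 from -0.20 to -0.36, while Slc9a3r2 stayed the lowest in both.

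Amino acid and peptide carriers numbered 25, of which 5 rose and 3 fell, with a median log2 fold change of 0.045. Among all genes tested, 15.4% rose and 14.6% fell. Without mimic replicates 3, 4 and 6 there were 5 rises and 5 falls in the class, where 9.36% of all genes rose and 6.83% fell. These rises were partly others, with Slc7a7 (0.18, adjusted p = 0.0389) and Slc3a2 (0.12, adjusted p = 0.0179) called and Slc7a1 and Slc38a2 not. All 5 that rose on all libraries carry neutral or cationic amino acids. So do others of the class, among them Slc1a5 and Slc43a2, which fell. The 17 that were not called lay between -0.23 and 0.22. Slc7a8, which encodes the neutral amino acid exchanger LAT2, had the largest rise of all members. Its log2 CPM was 5.68, 5.85, 5.88, 5.61 and 5.87 in control replicates 1, 2, 3, 4 and 6. In the mimic libraries the lowest value was 6.25, the median 6.34 and the highest 6.47. The groups did not overlap, and the log2 fold change was 0.57 (SE 0.056, adjusted p = 1.15e-06), or 1.48-fold. Without mimic replicates 3, 4 and 6 it was 0.56 (adjusted p = 9.79e-07).

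The other SLC7 members that rose were the cationic carriers Slc7a1 and Slc7a2, which take up arginine, and Slc7a5, the large neutral amino acid exchanger LAT1. Slc7a2 was at 6.45, 6.39, 6.46, 6.34 and 6.37 log2 CPM in the control libraries and between 6.58 and 6.87 in the mimic libraries, with a median of 6.74. Every mimic library was above every control, with a log2 fold change of 0.33 (SE 0.056, adjusted p = 0.000423). Slc7a1 was at 3.58, 3.30, 3.66, 3.55 and 3.81 in the control libraries and from 3.61 to 4.16 (median 4.02) in the mimic libraries. Here mimic replicate 1 lay within the control range and the other 5 above it, and the change of 0.39 (SE 0.099, adjusted p = 0.00909) was 0.28 (adjusted p = 0.128) without mimic replicates 3, 4 and 6. Slc7a5 was at 2.34, 2.00, 2.31, 2.07 and 1.96 in the control libraries and from 2.29 to 2.72 (median 2.50) with the mimic, a rise of 0.36 (SE 0.098, adjusted p = 0.0127) in which only mimic replicate 6 overlapped the controls. Slc3a2, the heavy chain that Slc7a5, Slc7a8 and Slc7a11 pair with, was not called (log2 fold change 0.04, SE 0.050, adjusted p = 0.518; 0.12, adjusted p = 0.0179 without mimic replicates 3, 4 and 6), and ranked 5 among members in level per kilobase of transcript.

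Slc7a11 moved the other way. It encodes the light chain of the cystine and glutamate exchanger that feeds glutathione synthesis. Control libraries were at 6.20, 6.21, 6.17, 6.17 and 6.09 log2 CPM, and mimic libraries ranged from 5.77 to 6.21 with a median of 5.94. Mimic replicates 1, 2, 3 and 5 lay below all controls, while mimic replicates 4 and 6 reached the control range. The fall of 0.20 on the log2 scale (SE 0.072, adjusted p = 0.0444) deepened to -0.36 (adjusted p = 2.43e-07) without mimic replicates 3, 4 and 6. After the length correction it was -0.28 (adjusted p = 0.000173).

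**Figure D3:**
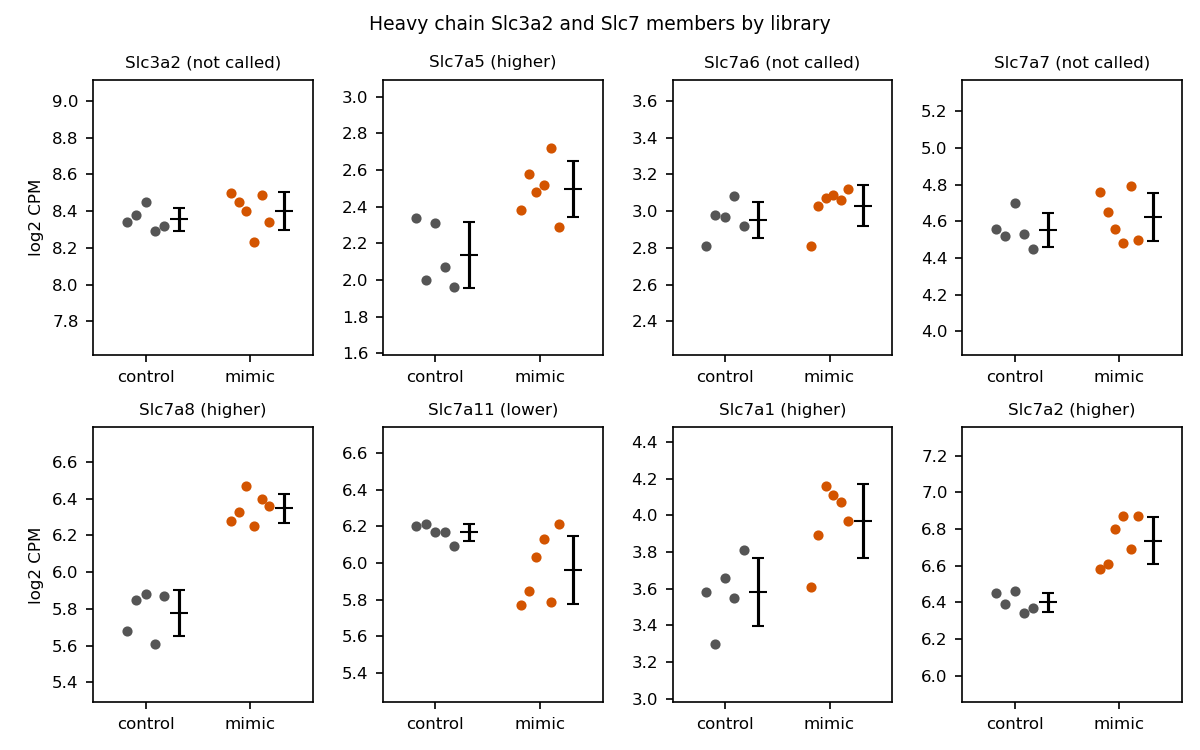
Log2 CPM of SLC7 family members and the heavy chain Slc3a2 in every library, with points in replicate order from left to right within each group, and the mean and SD of each group. Slc7a8 and Slc7a2 have no overlap between groups, whereas Slc7a11 has mimic replicates 4 and 6 among the controls.

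Outside SLC7, 1 member rose and 2 fell. Slc38a2 encodes SNAT2, a sodium-coupled carrier of small neutral amino acids, and rose by 0.24 (SE 0.059, adjusted p = 0.007), with control libraries at 5.58, 5.43, 5.61, 5.59 and 5.63 and mimic libraries at 5.60 to 5.92. Mimic replicate 1 lay among the controls, and without mimic replicates 3, 4 and 6 the change was 0.15 (adjusted p = 0.0543). Slc1a5, the glutamine exchanger ASCT2, was at 5.31, 5.44, 5.37, 5.37 and 5.39 in controls and from 4.94 to 5.25 (median 5.12) with the mimic, with no overlap and a log2 fold change of -0.27 (SE 0.055, adjusted p = 0.00214). Slc43a2, the branched-chain and aromatic amino acid carrier LAT4, fell in all 6 mimic libraries, with controls at 8.43 to 8.51 and mimic libraries at 8.17 to 8.35 (-0.23, SE 0.041, adjusted p = 0.00084). The lysosomal peptide and histidine carriers Slc15a3 and Slc15a4, which lie near Toll-like receptor signalling, were not called, at 0.03 (adjusted p = 0.529) and -0.08 (adjusted p = 0.241). Exons of Slc15a3 overlap Tmem132a on the opposite strand, and reads of the pair cannot be told apart without strand information.

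From a list of genes that sense or answer amino acid supply, 27 were tested, of which 6 rose and 6 fell (22.2% each, against 15.4% and 14.6% of all genes tested). Ddit3 and Atf4, stress-induced transcription factors, rose by 0.66 (adjusted p = 8.86e-08) and 0.34 (adjusted p = 9.58e-06). Sesn1, a leucine-binding regulator of mTORC1, fell by 0.30 (adjusted p = 0.000175), and Tfeb, the master regulator of lysosomal genes, by 0.43 (adjusted p = 0.000195). Each of these 4 was called in the same direction without mimic replicates 3, 4 and 6.

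The 4 members that carry nucleosides and nucleobases held 2 rises and 1 fall, with or without mimic replicates 3, 4 and 6. Over all genes tested, 15.4% rose and 14.6% fell, and 9.36% and 6.83% did without those libraries. Slc28a2 encodes the concentrative purine nucleoside carrier CNT2 and had the smallest p of all members. Control libraries were at 5.73, 5.69, 5.70, 5.74 and 5.66 log2 CPM. Mimic libraries were between 6.16 and 6.29, with a median of 6.25, so that the groups were far apart for their spread. The log2 fold change was 0.53 (SE 0.038, adjusted p = 1.62e-08), or 1.45-fold, and 0.56 without mimic replicates 3, 4 and 6. Slc43a3, a purine nucleobase carrier with a low level, was at 1.74, 1.77, 1.83, 1.29 and 1.39 in the controls and at 1.82 to 2.33 with the mimic (0.51, SE 0.12, adjusted p = 0.00631), with mimic replicate 6 inside the control range.

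Slc29a1, the equilibrative nucleoside carrier ENT1, fell. It was at 6.65, 6.63, 6.61, 6.63 and 6.59 in the controls and from 6.05 to 6.44 (median 6.30) in the mimic libraries, with no overlap and a log2 fold change of -0.36 (SE 0.064, adjusted p = 0.000803). Mimic replicates 3, 4 and 6 were the lowest, and without them the fall was 0.22 (adjusted p = 8.84e-05). Slc29a3, the lysosomal carrier ENT3, was not called (0.09, adjusted p = 0.106). Of 19 tested genes that make, salvage or sense nucleosides, 6 rose and 2 fell (31.6% and 10.5%, against 15.4% and 14.6% of all genes tested). Cmpk2, a nucleotide kinase of mitochondria, rose by 1.98 (adjusted p = 1.48e-09) and Dck, deoxycytidine kinase, by 1.18 (adjusted p = 6.03e-11). Pnp, purine nucleoside phosphorylase, rose by 0.89 (adjusted p = 1.48e-08), although its reads may be shared with the near-identical Pnp2. Samhd1, which breaks down deoxynucleotides, rose by 0.52 (adjusted p = 5.05e-08).

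**Figure D4:**
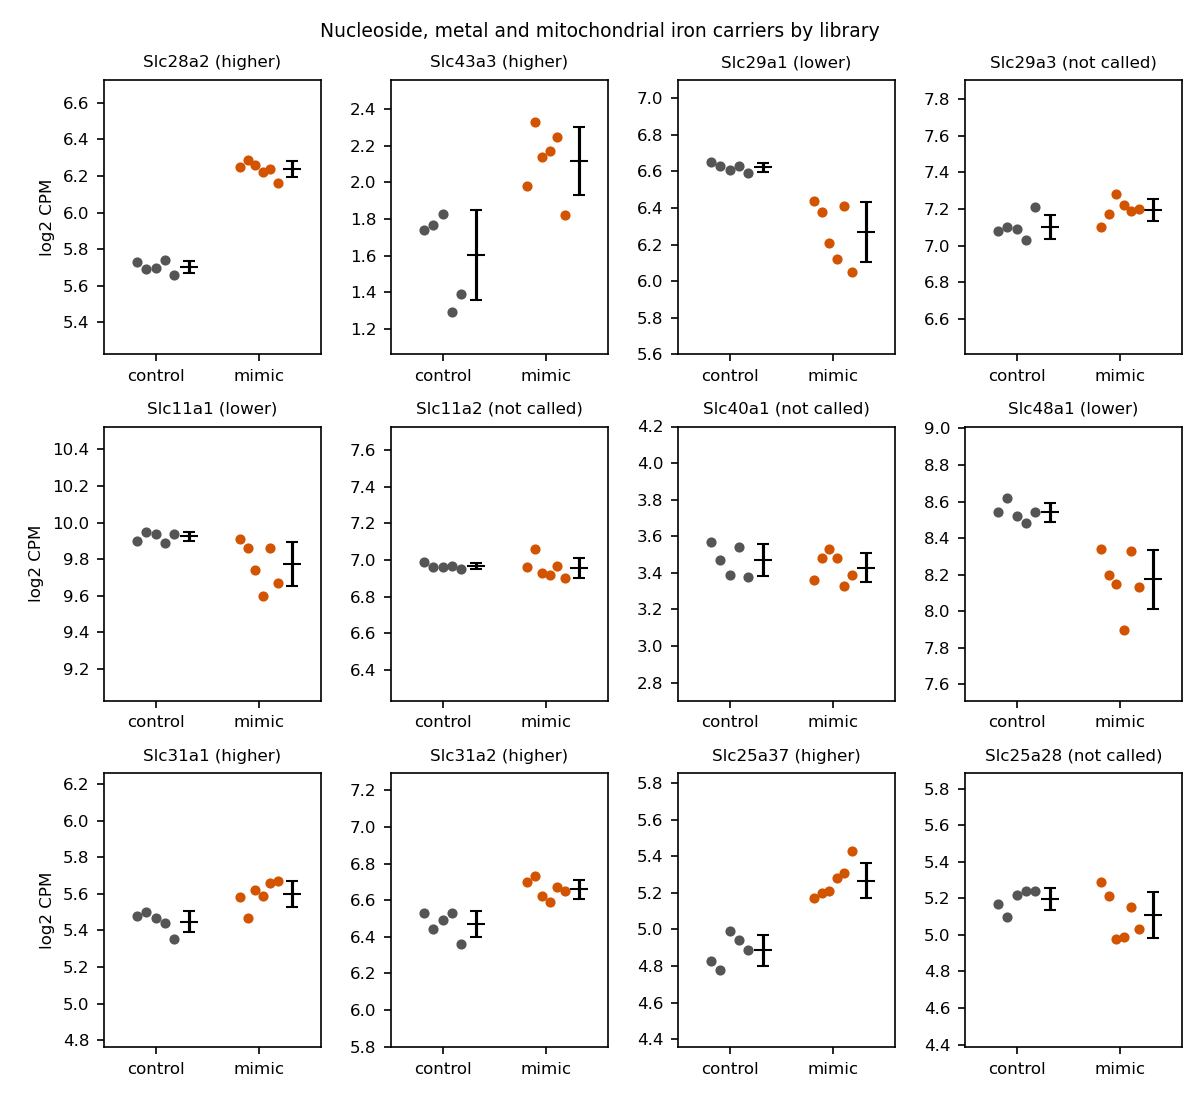
Log2 CPM of nucleoside and metal carriers in every library, with points in replicate order from left to right within each group, and the mean and SD of each group. Slc28a2 is higher in every mimic library and Slc29a1 lower in every one, and in Slc11a1 the low mimic libraries are replicates 3, 4 and 6.

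Metal and heme carriers numbered 26, of which 3 rose and 3 fell (11.5% each, against 15.4% and 14.6% of all genes tested). Their median log2 fold change was -0.023. Without mimic replicates 3, 4 and 6 there were 2 rises and 2 falls (7.69% each, against 9.36% and 6.83% of all genes). Both copper carriers rose. Slc31a2, CTR2 of endosomes, was at 6.53, 6.44, 6.49, 6.53 and 6.36 in controls and 6.59 to 6.73 with the mimic (0.19, SE 0.043, adjusted p = 0.00471), without overlap. Slc31a1, the copper importer CTR1, rose by 0.15 (SE 0.046, adjusted p = 0.0217), a call lost without mimic replicates 3, 4 and 6 (0.12, adjusted p = 0.0934). The zinc carrier Slc30a9 rose by 0.13 (SE 0.037, adjusted p = 0.016), with no overlap, and by 0.07 (adjusted p = 0.167) after the length correction.

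Among the falls, that of Slc48a1 was the largest. The gene encodes HRG1, which brings heme out of the phagolysosome after red cells are engulfed. The controls were at 8.54, 8.62, 8.52, 8.48 and 8.54 log2 CPM and the mimic libraries at 7.90 to 8.34, with a median of 8.17. All mimic libraries were below all controls, with a log2 fold change of -0.36 (SE 0.064, adjusted p = 0.000707). Its exons overlap those of Hdac7 on the opposite strand, so reads of the 2 genes cannot be told apart without strand information. Slc11a1, the phagosomal iron and manganese carrier NRAMP1 that limits intracellular microbes, had the highest level per kilobase of all members. Its controls were at 9.90, 9.95, 9.94, 9.89 and 9.94 and its mimic libraries at 9.60 to 9.91, with replicates 3, 4 and 6 lowest. The fall of 0.15 (SE 0.052, adjusted p = 0.0392) was -0.05 (adjusted p = 0.372) without those 3 libraries. The zinc carrier Slc39a3 fell by 0.18 (adjusted p = 0.0361), and was -0.08 (adjusted p = 0.314) without them. Slc30a4, another zinc carrier, was not called on all libraries (-0.20, adjusted p = 0.0551). It was called lower without mimic replicates 3, 4 and 6 (-0.34, adjusted p = 0.000982) and after the length correction (-0.25, adjusted p = 0.00675).

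Several well-known metal carriers were not called. The iron exporter ferroportin, Slc40a1, differed by -0.04 (SE 0.062, adjusted p = 0.64), the iron importer Slc11a2 by -0.01 (SE 0.037, adjusted p = 0.864), the zinc exporter Slc30a1 by -0.03 (SE 0.035, adjusted p = 0.528) and the zinc and iron importer Slc39a14 by -0.01 (SE 0.059, adjusted p = 0.923). Of 26 tested genes that store, bind or shuttle iron, zinc and copper, 2 rose (7.69%, against 15.4% of all genes tested) and 11 fell (42.3%, against 14.6%). Without mimic replicates 3, 4 and 6, 6 were called in either direction, where 16.2% of all genes were. Those 6 included both rises, and most of the 11 falls were then not called. Hmox2, a heme oxygenase, rose by 0.29 (adjusted p = 0.000143) and Tfrc, the transferrin receptor, by 0.33 (adjusted p = 0.000608). Mt1, a metallothionein that binds zinc and copper, fell by 0.59 (adjusted p = 0.00119), and Ftl1, the light chain of ferritin, by 0.39 (adjusted p = 0.00632). On leaving out mimic replicates 3, 4 and 6, Tfrc was at 0.21 (adjusted p = 7.8e-05), Mt1 at -0.38 (adjusted p = 0.0184) and Ftl1 at -0.21 (adjusted p = 0.0212).

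Sugar carriers numbered 12, of which none rose and 3 fell, with a median log2 fold change of -0.085. Among all genes tested, 15.4% rose and 14.6% fell. Without mimic replicates 3, 4 and 6 there were 2 falls and again no rise among the 12, where 9.36% of all genes rose and 6.83% fell. Slc2a1, the main glucose carrier GLUT1, was at 7.22, 7.25, 7.33, 7.16 and 7.31 in controls and 6.88 to 7.22 with the mimic, with replicates 5 and 6 reaching the control range. The fall was 0.16 (SE 0.055, adjusted p = 0.0367), and -0.13 (adjusted p = 0.0412) without mimic replicates 3, 4 and 6. Slc2a6, encoding the lysosomal GLUT6, was at 5.23, 5.08, 4.96, 5.17 and 5.20 in controls and 4.42 to 5.12 with the mimic. Replicates 3, 4 and 6 were again lowest, and the fall of 0.38 (SE 0.12, adjusted p = 0.0258) was -0.13 (adjusted p = 0.176) without them. Slc2a8, which encodes the intracellular GLUT8, was lower in every mimic library (-0.32, SE 0.079, adjusted p = 0.008), and at -0.19 (adjusted p = 0.0325) without mimic replicates 3, 4 and 6. Slc37a2, a sugar phosphate exchanger of the endoplasmic reticulum and the sugar carrier with the highest level, was not called (0.04, adjusted p = 0.393).

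Of 9 carboxylate carriers, 1 fell (11.1%, against 14.6% of all genes tested), and none was called without mimic replicates 3, 4 and 6. This was Slc16a3, the lactate exporter MCT4 of glycolytic cells, at 5.76 to 5.91 in controls and 5.32 to 5.87 with the mimic (-0.27, SE 0.080, adjusted p = 0.0203), and -0.11 (adjusted p = 0.152) without mimic replicates 3, 4 and 6. Slc16a1, encoding MCT1, was not called (-0.07, adjusted p = 0.252). Bsg, the chaperone that both need, was also not called (-0.14, SE 0.084, adjusted p = 0.205). Of 18 tested partners and trafficking genes of carriers, 4 rose and 2 fell (22.2% and 11.1%, against 15.4% and 14.6% of all genes tested). Arrdc3, an arrestin that directs membrane proteins to endosomes, rose by 0.31 (adjusted p = 0.000338), and Arl6ip5, which restrains glutamate uptake, fell by 0.34 (adjusted p = 0.00387). Arl6ip1, of the endoplasmic reticulum, rose by 0.18 (adjusted p = 0.00236), and Vps29, part of the retromer, fell by 0.30 (adjusted p = 0.00969). When mimic replicates 3, 4 and 6 were left out, Arl6ip5 was at -0.18 (adjusted p = 0.00946). Vps29, with mimic replicate 1 above every control, was then not called (-0.19, adjusted p = 0.288). The retromer genes did not move together. Vps26a was called higher (0.16, adjusted p = 0.0473), though not without those libraries (0.04, adjusted p = 0.554), and Vps35 was not called (0.13, adjusted p = 0.0748).

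The mitochondrial SLC25 family, with 35 members, held 4 rises and 5 falls (11.4% and 14.3%, against 15.4% and 14.6% of all genes tested). Its median log2 fold change was -0.006. Without mimic replicates 3, 4 and 6 there were 3 rises and 2 falls (8.57% and 5.71%, against 9.36% and 6.83% of all genes). Slc25a22, a glutamate carrier, was at 3.47, 3.32, 3.42, 3.41 and 3.51 in controls and 3.73 to 3.99 (median 3.91) with the mimic. The groups did not overlap, with a log2 fold change of 0.45 (SE 0.065, adjusted p = 0.000107). Slc25a37, mitoferrin 1, which brings iron in for heme and iron-sulfur clusters, was at 4.83, 4.78, 4.99, 4.94 and 4.89 in controls and 5.17 to 5.43 with the mimic, again without overlap (0.38, SE 0.055, adjusted p = 9.85e-05). Its paralog Slc25a28, mitoferrin 2, was not called (-0.08, adjusted p = 0.29). Slc25a10, the dicarboxylate carrier, was lower in every mimic library (-0.37, SE 0.079, adjusted p = 0.00336), and at -0.20 (adjusted p = 0.0161) without mimic replicates 3, 4 and 6.

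Slc25a4 and Slc25a5, the ADP/ATP carriers, fell by 0.18 (adjusted p = 0.0149) and 0.16 (adjusted p = 0.0478), the citrate carrier Slc25a1 by 0.23 (adjusted p = 0.0499) and the glutathione carrier Slc25a39 by 0.25 (adjusted p = 0.0225). None of these 4 falls was called without mimic replicates 3, 4 and 6, where they were -0.09, -0.06, -0.05 and -0.09. The phosphate carrier Slc25a3, with the highest log2 CPM in the family though not the highest level per kilobase, was not called (0.01, adjusted p = 0.771). The smaller rises of Slc25a24 (0.12, adjusted p = 0.0341) and Slc25a45 (0.13, adjusted p = 0.038) completed the called members of the family. Without mimic replicates 3, 4 and 6 they were 0.06 (adjusted p = 0.298) and 0.17 (adjusted p = 0.0162), and after the length correction Slc25a5 and Slc25a1 were -0.03 (adjusted p = 0.479) and -0.15 (adjusted p = 0.0589).

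Inorganic ion and pH carriers numbered 21, of which 1 rose and 3 fell (4.76% and 14.3%, against 15.4% and 14.6% of all genes tested). There were 3 falls (14.3%, against 6.83% of all genes) and no rise (against 9.36%) without mimic replicates 3, 4 and 6. Slc26a11, an anion and sulfate carrier, was at 4.74, 4.58, 4.62, 4.68 and 4.70 in controls and at 4.10 to 4.34 (median 4.18) with the mimic. Among the members that are carriers this was the largest fall, with no overlap (-0.46, SE 0.053, adjusted p = 9.5e-06) and -0.40 without mimic replicates 3, 4 and 6. The phosphate importer Slc20a1 rose by 0.18 (adjusted p = 0.0147), the endosomal sodium and proton exchanger Slc9a9 fell by 0.22 (adjusted p = 0.0266), and the potassium chloride cotransporter Slc12a4 fell by 0.16 (adjusted p = 0.0229). Without mimic replicates 3, 4 and 6, Slc20a1 was at 0.11 (adjusted p = 0.103) and Slc12a4 at -0.09 (adjusted p = 0.164). Slc8a1, the sodium and calcium exchanger, was not called (0.07, adjusted p = 0.229).

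Slc9a3r2 had the largest fall of all members. It encodes NHERF2, a scaffold protein that anchors a sodium and proton exchanger and is no carrier itself. Its control libraries were at 3.35, 3.28, 3.02, 3.34 and 3.15 log2 CPM, and its mimic libraries at 1.99 to 2.64, with a median of 2.43. The log2 fold change was -0.85 (SE 0.11, adjusted p = 3.84e-05), or 1.80-fold lower, and -0.65 without mimic replicates 3, 4 and 6. Its relative Slc9a3r1 was not called (-0.16, SE 0.074, adjusted p = 0.121), with replicates 3, 4 and 6 below every control.

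The remaining classes held few calls. On all libraries, 1 of 3 fatty acid carriers fell (33.3%), 1 of 14 carriers of organic cations and osmolytes (7.14%) and 1 of 6 in the bile acid class (16.7%). Over all genes tested, 14.6% fell. Of 6 vitamin carriers, 1 rose (16.7%, against 15.4% of all genes tested). Without mimic replicates 3, 4 and 6 the calls were 1 fall among the fatty acid carriers (33.3%) and 3 among those of organic cations and osmolytes (21.4%). Over all genes tested, the share of falls was then 6.83%. Among the vitamin, bile acid and nucleotide sugar classes, none was called without those libraries. The fatty acid activating carrier Slc27a4 was lower in every mimic library (-0.26, SE 0.059, adjusted p = 0.00401; -0.16, adjusted p = 0.0145 without those libraries), while its relative Slc27a1 was not called (0.01, adjusted p = 0.914). Slc22a4, the ergothioneine carrier OCTN1, was also lower in every mimic library (-0.19, SE 0.044, adjusted p = 0.00482), while the taurine carrier Slc6a6, ranked 2 in level per kilobase, was not called (-0.06, adjusted p = 0.252). It was called lower without mimic replicates 3, 4 and 6 (-0.10, adjusted p = 0.0432) and after the length correction (-0.12, adjusted p = 0.00762). Slc23a2, the vitamin C carrier, rose by 0.11 (adjusted p = 0.0296), and this was 0.07 (adjusted p = 0.146) without mimic replicates 3, 4 and 6 and 0.05 (adjusted p = 0.221) after the length correction. Slc46a3, of the lysosome, fell by 0.21 (adjusted p = 0.0309), and this was -0.08 (adjusted p = 0.307) without mimic replicates 3, 4 and 6. Slc17a5, which exports sialic acid from the lysosome, was not called (-0.08, adjusted p = 0.157). None of the 6 nucleotide sugar and acetyl-CoA carriers was called, Slc35a3 being at 0.18 (adjusted p = 0.0869). From a list of 27 tested carriers that go by other symbols, 1 rose (3.70%, against 15.4% of all genes tested) and 9 fell (33.3%, against 14.6%). They included Mfsd5 (-0.28, adjusted p = 0.00381), Mpc2 of the mitochondrial pyruvate carrier (-0.44, adjusted p = 0.00485), the uncoupling protein Ucp2 (-0.23, adjusted p = 0.00488) and Dirc2 (-0.24, adjusted p = 0.00645). With mimic replicates 3, 4 and 6 left out, fewer falls and more rises of this list were called than on all libraries. Mfsd5 was then at -0.15 (adjusted p = 0.00715), Ucp2 at -0.17 (adjusted p = 0.00259) and Dirc2 at -0.13 (adjusted p = 0.0303), and Mpc2 was not called (-0.24, adjusted p = 0.0533).

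**Figure D5:**
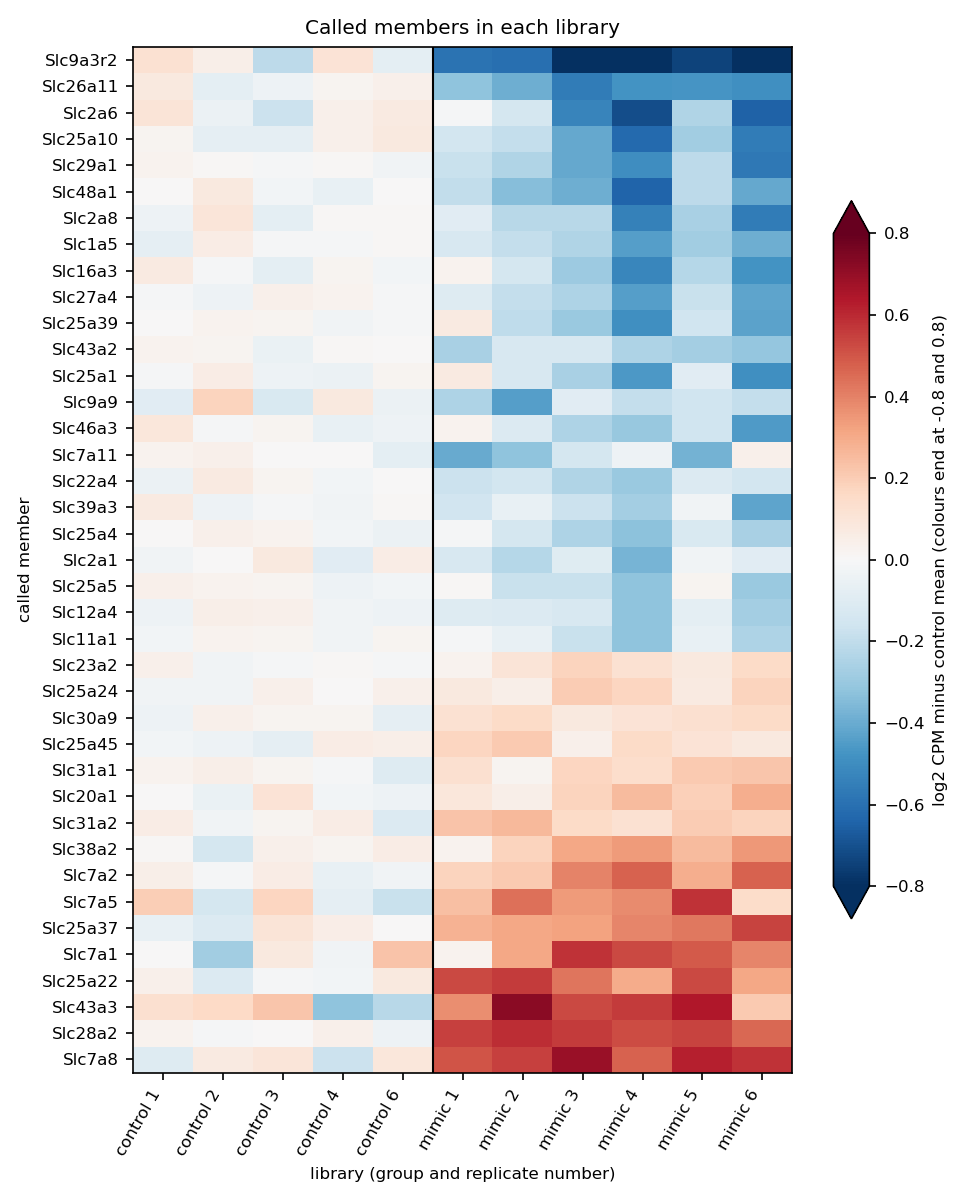
The 39 called members (rows) in each of the 11 libraries (columns), coloured by log2 CPM minus the mean of the control libraries (the colours end at -0.8 and 0.8) and ordered by log2 fold change. In 15 of the 23 falls the lowest mimic libraries are replicates 3, 4 and 6, and the rises of Slc28a2 and Slc7a8 show in every mimic library.

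To show the sequence ahead of 3 called members, promoters of 300 bases (250 before the start site and 50 after it) were taken from RefSeq, build GRCm38.p6, in which 129 members had at least 1 entry and 176 promoters in all. Both strands were searched for 10 short patterns, and the 3 promoters, with the pattern each is shown for, were chosen after matches and fold changes had been seen. Capitals mark the match, and each sequence reads 5′ to 3′ along the gene. Slc28a2 (chr2:122426185-122426484, plus strand) holds the interferon-gamma-activated site pattern TTCNNNGAA, starting 126 bases before the start site. Slc25a22 (chr7:141435326-141435625, minus strand) holds the interferon-stimulated response element pattern GAAANNGAAA, starting 79 bases before it, in 1 of its 3 listed promoters. Slc7a11 (chr3:50443564-50443863, minus strand) holds the amino acid response element pattern TGATGNAAN at 66 and 48 bases before it, on opposite strands. The Slc7a11 promoter also holds TTCNNNGAA, the pattern Slc28a2 is shown for, and that match is not in capitals.
Slc28a2: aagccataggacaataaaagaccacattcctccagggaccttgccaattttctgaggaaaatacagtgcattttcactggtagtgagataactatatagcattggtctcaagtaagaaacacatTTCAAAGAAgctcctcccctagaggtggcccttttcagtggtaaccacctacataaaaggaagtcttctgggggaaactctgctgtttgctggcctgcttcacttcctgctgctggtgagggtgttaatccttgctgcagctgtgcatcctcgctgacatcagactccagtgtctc
Slc25a22: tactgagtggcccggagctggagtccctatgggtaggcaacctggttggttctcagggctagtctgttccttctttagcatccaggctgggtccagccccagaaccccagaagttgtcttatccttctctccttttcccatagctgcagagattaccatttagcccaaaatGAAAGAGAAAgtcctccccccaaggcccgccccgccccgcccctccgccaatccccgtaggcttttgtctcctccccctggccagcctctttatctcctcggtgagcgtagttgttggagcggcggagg
Slc7a11: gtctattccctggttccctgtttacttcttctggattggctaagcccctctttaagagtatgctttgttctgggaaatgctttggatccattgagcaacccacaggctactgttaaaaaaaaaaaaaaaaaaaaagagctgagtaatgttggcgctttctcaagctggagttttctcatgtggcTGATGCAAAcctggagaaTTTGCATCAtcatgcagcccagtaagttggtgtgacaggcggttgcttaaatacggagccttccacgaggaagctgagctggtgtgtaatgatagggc
A match is a run of letters and shows no binding. Of all 32851 listed promoters, 8.30% held TTCNNNGAA, 3.44% GAAANNGAAA and 3.95% TGATGNAAN, and of the members' promoters 5.11%, 1.70% and 2.84% did. Among members with a listed promoter, TTCNNNGAA was held by 2 of 12 called higher and 2 of 20 called lower. For GAAANNGAAA these numbers were 1 and 0, and for TGATGNAAN 0 and 2. The other patterns were the antioxidant response element TGACNNNGC (12.4% of all promoters and 20.5% of the members'), the hypoxia response element ACGTG (19.6% and 28.4%), the metal response element TGCNCNC (51.0% and 56.2%), the kappaB site GGGANTTCC (1.68% and 1.70%), and 3 with no match in the members' promoters (GAAANNGAAAC, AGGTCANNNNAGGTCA and the lysosomal E-box). The hypoxia pattern lies within that E-box, and GAAANNGAAA within GAAANNGAAAC.

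Exons of 48 members overlap a gene on the opposite strand in the annotation, and without strand information their reads cannot be told apart from that gene's. Among the called members these are 9, namely Slc7a2, Slc43a2, Slc2a1, Slc20a1, Slc12a4, Slc48a1, Slc25a37, Slc25a10 and Slc29a1.

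Of the 39 called members, 15 lost the call when a single library was left out, and none of them changed direction. The same share over all called genes is not given here, so whether this loss is particular to the members cannot be read from it. Slc7a11 lost it without any control or mimic replicate 1, 2, 3 or 5 (log2 fold change -0.25 to -0.16, highest adjusted p = 0.0927). Without any control or mimic replicate 3, 4 or 6, the same held for Slc11a1 (-0.18 to -0.11, 0.0854), Slc39a3 (-0.21 to -0.14, 0.087) and Slc25a1 (-0.28 to -0.17, 0.103). Slc25a5 lost it without any control or mimic replicate 2, 3, 4 or 6 (-0.20 to -0.13, 0.103), and Slc46a3 without control replicate 1, 2, 3 or 6 or mimic replicate 3, 4 or 6 (-0.25 to -0.16, 0.0803). Both glucose carriers with overlapping groups were among them. Slc2a6 lost the call without control replicate 1, 4 or 6 or mimic replicate 3, 4 or 6 (-0.45 to -0.31, 0.0583), and Slc2a1 without control replicate 1, 2, 3 or 6 or mimic replicate 2 or 4 (-0.19 to -0.12, 0.0937). Slc23a2 lost it without control replicate 2, 3, 4 or 6 or mimic replicate 3 or 6 (0.10 to 0.13, 0.0727). For Slc25a24 these were control replicates 1, 2 and 4 and mimic replicates 3, 4 and 6 (0.11 to 0.14, 0.0799), and for Slc25a45 control replicates 1, 2 and 3 and mimic replicates 2 and 4 (0.11 to 0.15, 0.0986). Fewer libraries decided the remaining calls, namely control replicates 2 and 3 and mimic replicate 6 for Slc12a4 (-0.18 to -0.13, 0.0612), and control replicates 2 and 4 for Slc9a9 (-0.25 to -0.17, 0.0805). A single library did so for Slc16a3 (control replicate 1; -0.33 to -0.22, 0.0507) and Slc31a1 (control replicate 6; 0.13 to 0.18, 0.0629). In each parenthesis the last value is the highest adjusted p over the 11 omissions (limma).

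At an adjusted p below 0.05, the authors' deposited table of fold changes and adjusted p-values called 12 members higher and 15 lower. All 27 were called in the same direction in the fit used here. The other members called here were not called in that table, where their fold changes had the same sign. Among the rises these were Slc7a5 (adjusted p = 0.0512 in that table), Slc31a1 (0.0625), Slc25a24 (0.0783) and Slc25a45 (0.123). Among the falls they were Slc46a3 (0.0516), Slc2a1 (0.0519), Slc12a4 (0.0532), Slc25a5 (0.0648), Slc25a1 (0.0707), Slc7a11 (0.0857), Slc39a3 (0.0869) and Slc9a9 (0.0871).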

How the data were processed

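Expression was measured by RNA sequencing in 11 libraries, grouped and numbered from the sample titles. The authors' deposited expression values are log2 CPM. From the values, each is the log2 of a whole read number plus 0.5, divided by a scaled library total, and whole reads were recovered for 100% of values (within 0.01 read). STAR, featureCounts of Subread, and edgeR are named in the submitters' processing notes, whereas versions, build, annotation and strand are not given in the sources used here. Fold changes (log2), p-values and 2 score columns (log odds and moderated t, not used) per gene also stand in the authors' deposited table.

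limma 3.58.1 (R 4.3.3, statmod 1.5.0; trend and robust settings) compared the groups in the 12969 genes that reached a log2 CPM of -1 in 5 or more libraries, with Benjamini-Hochberg adjustment over all of them. All fold changes are on that log2 scale with 0.5 reads added. The model was tested on simulated data. Strand, chromosome and transcript length came from GENCODE M21, which may not be the authors' annotation. Python 3.11.15, pandas 2.3.3, numpy 2.4.6 and matplotlib 3.10.9 were used for tables and figures.

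The members, substrate classes, gene lists, alternatives and naming rule were chosen with earlier results of these data known. The rule named the 10 largest called rises and falls, and up to 4 called members and the highest-level member of each class. It also named a set of well-known carriers and up to 4 called genes of each related list. Bsg, Slc39a3, Slc30a4, Vps26a, Vps35 and some SLC25 members were named beyond the rule, after their values were seen. The 4 genes that are no carriers were moved out of their family classes after values were seen, which moved Slc9a3r2 out of the ion class. Alternatives were scaling, filter, added reads, weighted voom, threshold, replicate block, length correction, member rule and left-out libraries.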

Additional observations from a re-analysis of the deposited data

Results flagged for a closer look

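Among the 102 groups of control or mimic libraries of the named members, 3 had a single library far from the others for the range of its group, where chance flags about 1 in 20 groups. For Slc20a1, control replicate 3 was the highest control at 5.84 log2 CPM, with the nearest at 5.73. For Slc38a2, control replicate 2 was the lowest control at 5.43, with the nearest at 5.58. For Slc9a3r1, control replicate 6 was the highest control at 7.39, with the nearest at 7.31.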

How the results depend on the processing

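The counts of members called (16 higher, 23 lower) were 25 higher and 31 lower with weighted voom, and 9 higher and 10 lower at an adjusted p below 0.01; leaving out 1 library gave 13 to 24 higher and 14 to 28 lower, the lowest lower counts (14 to 15) coming without control replicate 1, 2, 3 or 6. Total read scaling gave 13 and 26. Libraries of the same replicate number were little correlated in their deviations from the group means (-0.061 to 0.062), which does not show whether the samples were paired. A replicate block gave 12 higher and 24 lower, with 5 named members losing their call. Amino acid carriers that fell numbered 6 with the length correction and 5 without mimic replicates 3, 4 and 6, against 3 (2 to 3 with 1 library out; rises 5 to 6). Sugar carriers that fell numbered 1 at 0.01 and 1 to 4 with 1 library out (1 without control replicate 1 or 6 or mimic replicate 4), and rises 0. Metal carriers that rose numbered 1 with no filter, with the replicate block and at 0.01, 6 with voom, and 3 to 4 with 1 library out; those that fell numbered 5 with the filter at 1 or the length correction, 1 at 0.01, and 1 to 4 with 1 library out (1 without any single control or mimic replicate 6). Nucleoside carriers were 2 to 3 higher and 1 lower with 1 library out. All other classes together had 6 rises, which were 3 with total read scaling or without mimic replicates 3, 4 and 6, 11 with voom, 2 at 0.01 and 3 to 11 with 1 library out (3 without control replicate 2, 11 without mimic replicate 1), and 13 falls, which were 5 at 0.01 and 8 to 17 with 1 library out (8 without control replicate 2). Of the related lists, carriers of other symbols had 5 calls at 0.01 (10 to 14 with 1 library out), the metal list 6 with no filter, without mimic replicates 3, 4 and 6 or at 0.01 (10 to 16), partners 3 without those libraries (4 to 9), the amino acid list 11 to 16 and the nucleoside list 7 to 9. No named member changed direction while called. The cause of these shifts was not tested.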
